A study of Homo sapiens with 6 samples.

Results

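The isocitrate dehydrogenases and the enzymes that make or use 2-oxoglutarate or 2-hydroxyglutarate were listed by name as 8 genes: IDH1, IDH2, IDH3A, IDH3B, IDH3G, D2HGDH, OGDH and GLUD1. Of these, 7 had a probe set annotated to exactly 1 gene symbol, out of 18417 genes so named on the array, and no filter on low values was applied. No probe set carried GLUD1 as its symbol in the annotation used here, so that gene was not analysed here. D2HGDH had 2 probe sets, and the brighter of them represents the gene. The cells were HCT116, an established human colorectal carcinoma line, in 2 groups of 3 arrays each: the parental line, and a mutant line derived from it that the labels describe as having altered DNA methylation. The labels name neither the mutated gene nor any treatment, and do not say whether the mutant arrays come from 1 clone or several, so the mutation and other differences between the lines cannot be told apart. Values are log2 expression after robust multi-array averaging (RMA), and a difference is always mutant minus parental.

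Isocitrate dehydrogenases turn isocitrate into 2-oxoglutarate, the branch point between the citric acid cycle and glutamate. IDH1 works in the cytosol and peroxisomes and IDH2 in mitochondria, both reducing NADP, whereas IDH3A, IDH3B and IDH3G are the subunits of the mitochondrial enzyme that reduces NAD within the cycle. OGDH is the catalytic subunit of the complex that carries 2-oxoglutarate on to succinyl-CoA. D2HGDH oxidises D-2-hydroxyglutarate back to 2-oxoglutarate. Certain mutant forms of IDH1 and IDH2 make D-2-hydroxyglutarate, which competes with 2-oxoglutarate at enzymes that demethylate DNA and histones; expression values show neither a mutation nor the metabolite.

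OGDH and IDH2 rose in the mutant line and IDH1 fell, while IDH3A, IDH3B, IDH3G and D2HGDH did not pass the test. A difference was called at an adjusted p under 0.05 (limma, Benjamini-Hochberg over all probe sets). Of the 7 genes, 3 were called, 2 higher and 1 lower. Calls were common in this comparison, covering 18.5% of all 33297 probe sets and 25.9% of the single-symbol genes. Of the 11208 such genes whose mean log2 value was 7 or more, as it was for the 7 genes, 36.5% were called, 20.9% higher and 15.6% lower. The parental and mutant arrays did not overlap for any of the 7 genes, but the same held for 61.5% of genes in that range. In bulk RNA, fewer cells with a transcript and less of it per cell cannot be told apart. The median difference of the 7 was 0.12, against 0.02 for genes in that range.

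**Figure D1:**
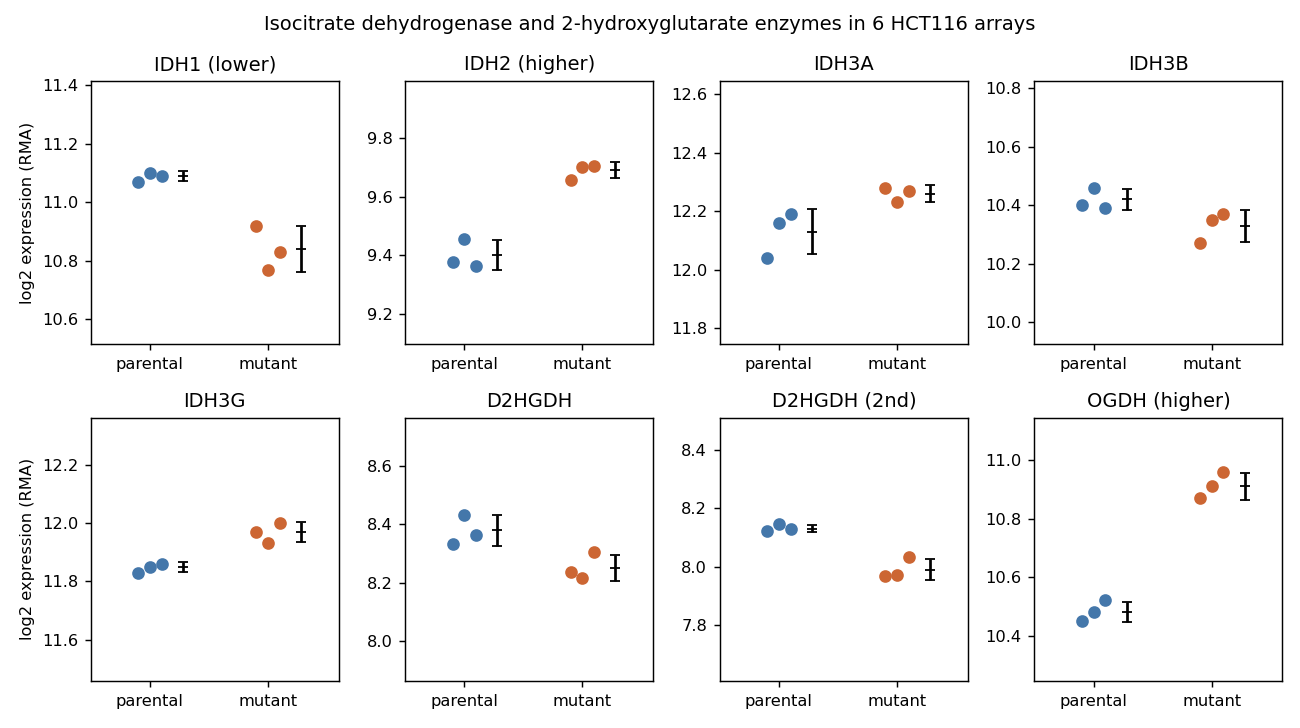
Log2 expression of the 8 probe sets of the 7 genes in each array; circles are arrays, the black mark and bar beside them the group mean and SD (n = 3). Every panel spans the same height on its own scale, so distances but not levels can be compared between genes. OGDH shows the widest gap between groups, 0.35, and IDH3B a narrow one of 0.027.

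IDH1 (probe set 8058552, chromosome 2) read 11.07, 11.10 and 11.09 in the parental arrays and 10.92, 10.77 and 10.83 in the mutant arrays. Every mutant array lay below every parental array, and the mutant arrays were spread more widely than the parental ones. The mean went from 11.09 ± 0.017 to 10.84 ± 0.079 (SD, n = 3 each), a log2 difference of -0.25 with a 95% interval of -0.39 to -0.11 and an adjusted p of 0.0295 (limma). In linear terms the mutant level was 0.842 of the parental level (0.765 to 0.927). The call depended on which arrays were kept. It was lost when parental replicate 1, 2 or 3 or mutant replicate 2 or 3 was left out, with adjusted p-values from 0.0698 to 0.10, and it was kept without mutant replicate 1. Across all 17 alternatives the difference stayed negative, between -0.29 and -0.21, with adjusted p-values from 0.00493 to 1.

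The mutant line carries a label of altered DNA methylation, so the sequence before the IDH1 start is shown with each CpG, the dinucleotide that is methylated, in capitals. It is the window of 250 bases before the outermost RefSeq start, chr2:208255072-208255321 on the minus strand of GRCh38.p14:
IDH1: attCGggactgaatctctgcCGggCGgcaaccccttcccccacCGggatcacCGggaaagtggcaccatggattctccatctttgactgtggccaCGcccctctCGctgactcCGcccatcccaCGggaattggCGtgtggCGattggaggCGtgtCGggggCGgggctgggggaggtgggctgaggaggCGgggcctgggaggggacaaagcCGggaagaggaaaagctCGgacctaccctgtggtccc
It holds 17 CpGs, more than 61.0% of the 35116 RefSeq promoter windows of this length, whose median is 11. On either strand it has 3 matches to the GC box GGGCGG and 2 to the CCAAT box CCAAT, letters found in 42.6% and 32.0% of all windows. It has no match to the E-box CACGTG (in 6.34% of windows) or the TATA box TATAAA (10.7%). The GC box and CCAAT box matches share 0 bases. DNA methylation itself was not analysed here.

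IDH2 (probe set 7991374, chromosome 15) moved the other way. Its parental arrays read 9.38, 9.45 and 9.36, and its mutant arrays 9.66, 9.70 and 9.70. All mutant arrays were above all parental arrays by at least 0.20. The mean rose from 9.40 ± 0.05 to 9.69 ± 0.027 (SD, n = 3 each), a difference of 0.29 (95% interval 0.17 to 0.41, adjusted p = 0.011, limma), which is 1.22-fold. Leaving out any single array kept the call, and of the 17 alternatives it was lost in 1, the test for a change beyond 1.2-fold, where the adjusted p was 1 and the range over all alternatives 0.00137 to 1.

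The RefSeq table lists for IDH2 a start that lies 1847 bases downstream of the gene's outermost start. The 250 bases before it, chr15:90100622-90100871 on the minus strand of GRCh38.p14, are given with CpGs in capitals:
IDH2: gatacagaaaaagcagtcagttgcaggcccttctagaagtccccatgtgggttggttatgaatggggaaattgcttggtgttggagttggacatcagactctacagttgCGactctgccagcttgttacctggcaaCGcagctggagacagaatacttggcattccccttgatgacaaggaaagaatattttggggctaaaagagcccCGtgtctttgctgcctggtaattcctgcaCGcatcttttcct
This window holds 4 CpGs, more than 29.3% of all windows, and matches none of the 4 motifs. The outermost IDH2 start was not in the table, so this window is not the counterpart of the IDH1 window shown. A window before an IDH1 start 613 bases downstream of its outermost start held 13 CpGs. Among the genes that were not called, the windows before the outermost starts held 15 CpGs for IDH3B, 26 for IDH3A, 33 for IDH3G and 36 for D2HGDH, against 17 for IDH1. OGDH had no entry.

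The difference between IDH1 and IDH2 within an array compares their changes directly. IDH1 minus IDH2 was 1.69, 1.64 and 1.73 in the parental arrays and 1.27, 1.07 and 1.12 in the mutant arrays, without overlap. The shift was -0.54, with an exact two-sided permutation p of 0.10, the smallest that 3 against 3 arrays allow, and 0.13 after Benjamini-Hochberg adjustment over the 4 pairs compared. With such a small design this test cannot reach 0.05. How often other pairs of genes lack overlap was not counted.

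**Figure D2:**
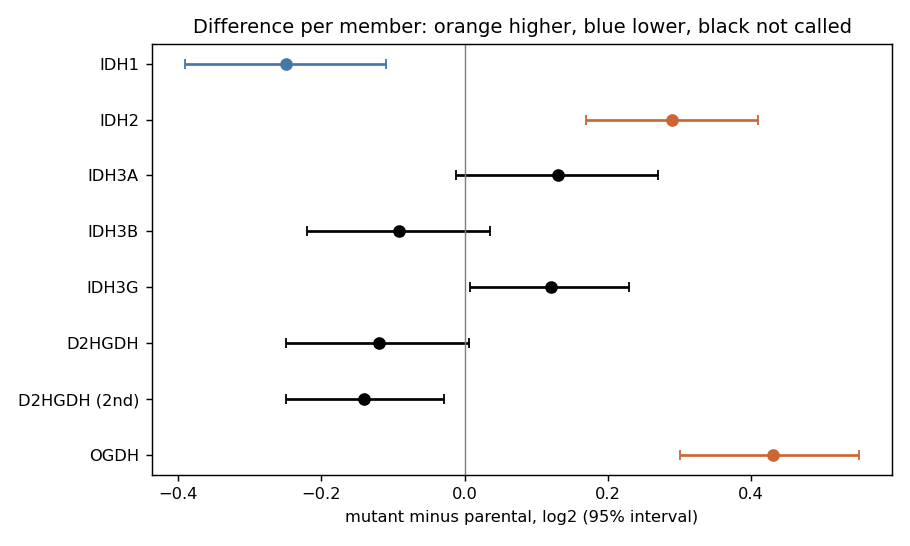
Mutant minus parental difference of each probe set on the log2 scale; points are the fitted differences of 3 against 3 arrays and bars their 95% intervals from limma. IDH1 lies below 0 with an interval of -0.39 to -0.11, IDH2 and OGDH lie above it, and the remaining probe sets lie between -0.14 and 0.13.

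None of the 3 subunits of the NAD-dependent enzyme passed the test. IDH3A, the catalytic subunit (probe set 7985134, chromosome 15), read 12.04, 12.16 and 12.19 in parental and 12.28, 12.23 and 12.27 in mutant arrays. The parental array at 12.04 stood below the others of its group, and the groups were separated by 0.039. The difference was 0.13 (95% interval -0.012 to 0.27, adjusted p = 0.205, limma). IDH3B, a regulatory subunit (probe set 8064522, chromosome 20), read 10.40, 10.46 and 10.39 in parental and 10.27, 10.35 and 10.37 in mutant arrays. Its groups nearly touched, with a difference of -0.091 (-0.22 to 0.035, adjusted p = 0.319). IDH3G, the other regulatory subunit (probe set 8175844, chromosome X), read 11.83, 11.85 and 11.86 in parental and 11.97, 11.93 and 12 in mutant arrays.

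The IDH3G difference was 0.12 (95% interval 0.0080 to 0.23, adjusted p = 0.142, limma). It passed the threshold under 3 of 17 alternatives: with an intensity trend (adjusted p = 0.0269), among probe sets with a mean of at least 7 (0.0444) and in an ordinary linear model (0.0387), out of a range of 0.0269 to 1. An increase of IDH3A beyond 1.2-fold, or of IDH3G beyond 1.18-fold, lies outside these intervals, as does a decrease of IDH3B below 0.86 of the parental level. Within arrays, IDH3A minus IDH3B had mean values of 1.71 ± 0.075 in parental and 1.93 ± 0.073 in mutant arrays (SD, n = 3 each). That shift of 0.22, and the shift of -0.21 for IDH3B minus IDH3G, came without overlap of the groups (exact permutation p = 0.10 each, adjusted 0.13). Both shifts involve IDH3B. Among single genes with a mean of at least 7, 61.5% had no overlap, and the share among pairs of genes was not counted. For IDH3A minus IDH3G the shift was 0.01 with overlapping groups (exact permutation p = 1.0, adjusted 1.0), and its sign changed under other settings.

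OGDH gave the largest difference among the 7 genes. Its probe set (8132592, chromosome 7) read 10.45, 10.48 and 10.52 in parental arrays and 10.87, 10.91 and 10.96 in mutant arrays. The lowest mutant array was 0.35 above the highest parental array, against SDs within the groups of 0.034 and 0.045. The mean rose from 10.48 ± 0.034 to 10.91 ± 0.045 (SD, n = 3 each), by 0.43 (95% interval 0.30 to 0.55, adjusted p = 0.00256, limma), or 1.34-fold (1.23 to 1.46). The call held without any single array and of the 17 alternatives was lost in 1, the test against a 1.2-fold change (adjusted p = 0.126, with 0.000141 to 0.126 over all alternatives). In size it was moderate for this comparison, since 16.4% of the 11208 genes with a mean of at least 7 had a larger absolute difference; for IDH2 that share was 28.6% and for IDH1 34.1%.

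D2HGDH, which clears D-2-hydroxyglutarate, was read by 2 probe sets. The brighter (8077238) gave 8.33, 8.43 and 8.36 in parental and 8.24, 8.22 and 8.30 in mutant arrays. The other (8049919) gave 8.12, 8.15 and 8.13 in parental and 7.97, 7.97 and 8.03 in mutant arrays. On both, each mutant array lay under each parental array, and neither difference passed the test: -0.12 (95% interval -0.25 to 0.0063, adjusted p = 0.189) and -0.14 (-0.25 to -0.029, adjusted p = 0.0918, limma). The 2 probe sets share annotated transcripts, so they are not independent readings.

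The wider pathway was counted over 54 named genes outside the 8, from 7 lists written from knowledge of the pathway; another 9 listed genes had no probe set named for them here. Of these 54, 16 rose, 9 fell and 29 did not pass the test. That is 46.3% called, beside 25.9% of all single-symbol genes. Of the 43 with a mean of at least 7, 23 were called, beside 36.5% of all single-symbol genes in that range. The lists were chosen with earlier results of these data known. The median difference of the 54 was 0.049, beside 0.0034 for all single-symbol genes and 0.02 for those with a mean of at least 7. Leaving out arrays lowered the number called from 25 to between 15 and 18, with 15 without mutant replicate 2 or parental replicate 2 and 16 without parental replicate 1 or 3.

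Partners and relatives of OGDH showed 3 of 5 higher and 0 lower, with a median difference of 0.24; without any array but mutant replicate 1, 2 were higher, since DLD was lost. DHTKD1, the related dehydrogenase that acts on 2-oxoadipate, rose by 0.78, from 9.05 ± 0.03 to 9.83 ± 0.014 (SD, n = 3 each; adjusted p = 0.000215). OGDHL, a paralog of OGDH, rose by 0.49 (adjusted p = 0.0123). DLD, the dihydrolipoamide dehydrogenase that OGDH shares with other complexes, rose by 0.24 (adjusted p = 0.0202) and was named after its values were seen. DLST, the succinyl transferase of the same complex, read 10.37 ± 0.0061 in parental and 10.34 ± 0.025 in mutant arrays (adjusted p = 0.701), and KGD4, which tethers the complex's parts, differed by 0.066 (adjusted p = 0.561).

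Enzymes other than the members that make or remove 2-hydroxyglutarate showed 1 of 6 higher and 1 lower (median -0.066). PHGDH, the first enzyme of serine synthesis, which can also reduce 2-oxoglutarate to D-2-hydroxyglutarate, read 11.04 ± 0.038 in parental and 9.91 ± 0.026 in mutant arrays (SD, n = 3 each), which is -1.12 in log2 (adjusted p = 7.34e-05). MDH2, the mitochondrial malate dehydrogenase, rose by 0.23 (adjusted p = 0.0372), a call that was lost whichever array was left out (0.0702 to 0.105, limma). LDHA and MDH1, which can make the L form as a side reaction, differed by -0.00037 and 0.047 (adjusted p = 0.997 and 0.591), and LDHB by -0.14 (adjusted p = 0.111). ADHFE1, which makes D-2-hydroxyglutarate while oxidising 4-hydroxybutyrate, was dim in both lines, at 4.97 ± 0.16 and 4.84 ± 0.15 (adjusted p = 0.507).

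In the remaining citric acid cycle 4 of 10 named enzymes rose (SDHD, SDHA, SUCLG2 and MDH2) and 1 fell, with a median difference of 0.12. Leaving out arrays lowered the 4 to between 1 and 3: SDHA alone was called higher without mutant replicate 2 or 3, and 2 enzymes whichever parental array was left out. The decrease was kept each time. SDHD and SDHA, subunits of succinate dehydrogenase, rose by 0.37 (adjusted p = 0.019) and 0.27 (adjusted p = 0.0093). A less bright SDHD probe set was also called, at 0.33 (adjusted p = 0.0156, limma). SUCLA2, the subunit that makes succinyl-CoA synthetase form ATP, was the decrease, from 10.82 ± 0.10 to 9.98 ± 0.042 (SD, n = 3 each), by -0.84 (adjusted p = 0.000604). SUCLG2, its counterpart in the enzyme that forms GTP, rose by 0.24 (adjusted p = 0.0197) and was named after its values were seen. Of the 20 genes nearest to SUCLA2 in order along chromosome 13, 12 were lower and 1 was higher, with a median of -0.27; the part of this stretch in the SUCLA2 value was not tested.

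Among enzymes that join glutamine, glutamate and 2-oxoglutarate, 4 of 13 rose and 1 fell (median 0.13). Without any array but mutant replicate 3, 2 were higher, AADAT and OAT. AADAT, a transaminase of 2-aminoadipate and kynurenine that uses 2-oxoglutarate, rose by 0.46 (adjusted p = 0.00275), and OAT, the ornithine aminotransferase, by 0.41 (adjusted p = 0.0035). PSAT1, which makes 2-oxoglutarate in serine synthesis, changed by -0.34 (adjusted p = 0.00721). GLUL, the glutamine synthetase, and KYAT3, a kynurenine transaminase, differed by 0.22 (adjusted p = 0.0461) and 0.31 (adjusted p = 0.0392) and were named after their values were seen. The KYAT3 call was lost whichever array was left out (adjusted p = 0.054 to 0.118), and that of GLUL without any array but mutant replicate 3 (0.0877 to 0.147, limma). These GLUL values are for its brighter probe set. A less bright one was also called with all arrays, at 0.19 (adjusted p = 0.038, limma). The main aspartate transaminases GOT1 and GOT2 differed by 0.14 and 0.13 (adjusted p = 0.0876 and 0.138).

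Other sources of NADPH showed 1 of 11 higher and 3 lower, with a median of -0.11; whichever array was left out, 0 were higher and 3 lower. MTHFD1, a cytosolic folate enzyme, changed by -0.60 (adjusted p = 0.00102), and ME2, a mitochondrial malic enzyme on chromosome 18, by -0.49 (adjusted p = 0.00801). On that chromosome 36.9% of the other genes with a mean of at least 7 were lower and 16.6% higher, while of its 20 nearest such genes 2 were lower and 5 higher, with a median of 0.16; the part of these in the ME2 value was not tested. ME1, the cytosolic malic enzyme, rose by 0.22 (adjusted p = 0.022). MTHFD2 was the remaining gene called lower, at -0.44 (adjusted p = 0.00196), and was named after its values were seen. Its less bright probe set gave -0.41 (adjusted p = 0.00441, limma).

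Of 8 mitochondrial carriers 3 were higher and 3 lower (median -0.054); leaving out arrays gave 2 higher and 1 lower, or 2 lower without mutant replicate 3. SLC25A21, which exchanges 2-oxoadipate for 2-oxoglutarate, rose by 0.74 from a dim 6.18 ± 0.21 (adjusted p = 0.0159), and SLC25A13, an aspartate and glutamate carrier, by 0.58 (adjusted p = 0.00153). SLC25A1, the citrate carrier, changed by -0.64 (adjusted p = 0.00179) and SLC25A10, the dicarboxylate carrier, by -0.29 (adjusted p = 0.0356). SLC25A11, the 2-oxoglutarate and malate carrier, and SLC25A22, a glutamate carrier, differed by 0.20 (adjusted p = 0.0415) and -0.25 (adjusted p = 0.0202) and were named after their values were seen. Of 3 mitochondrial sirtuins 1 was higher, SIRT4, at 0.44 from a dim 5.95 ± 0.088 (adjusted p = 0.0126). SIRT3, which deacetylates IDH2, differed by 0.19 (adjusted p = 0.176). The calls of ME1, SLC25A10 and SLC25A11 were lost whichever array was left out, with adjusted p-values of 0.0529 to 0.0758, 0.0524 to 0.117 and 0.0699 to 0.132. That of SLC25A22 was lost without any array but mutant replicate 3 (0.0547 to 0.0782). Those of DLD and SUCLG2 were lost without any array but mutant replicate 1 (0.0593 to 0.0693 and 0.0567 to 0.0787). That of SDHD, read on its brighter probe set, was lost without mutant replicate 2 or 3 (adjusted p = 0.0693 and 0.0648). The SIRT4 call was lost without parental replicate 2 (0.051). All of these were tested with limma.

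**Figure D3:**
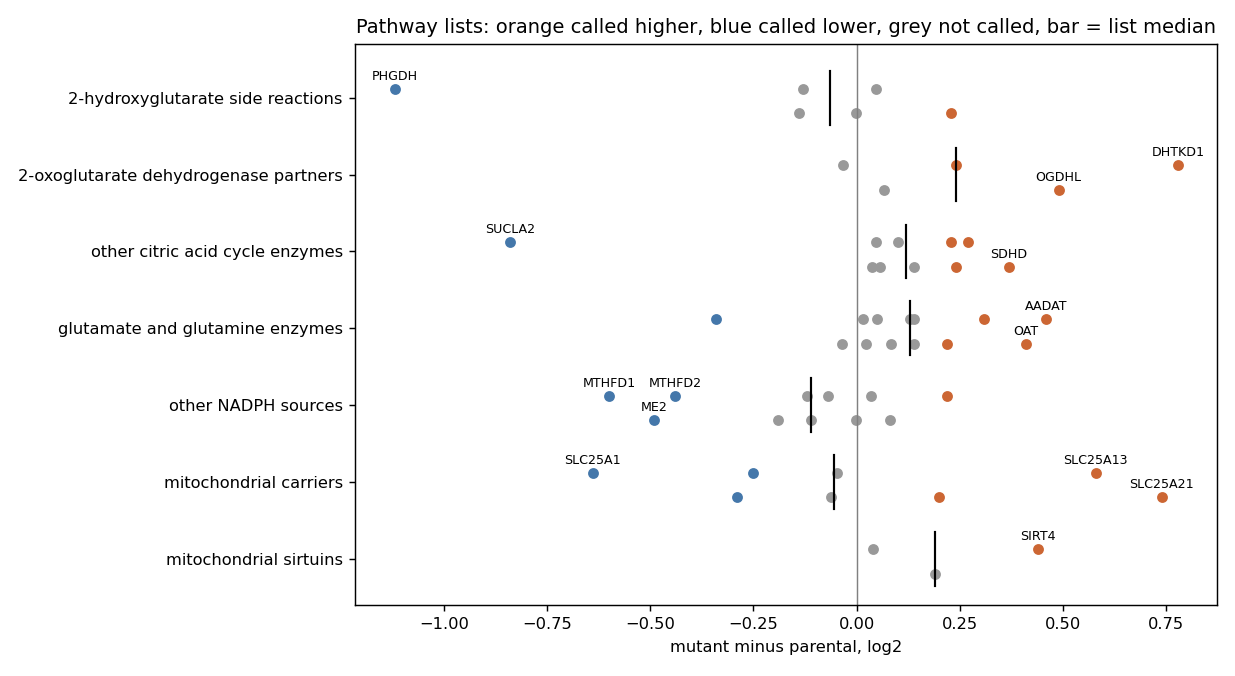
Mutant minus parental log2 difference of each named gene in the 7 pathway lists, 1 point a gene (MDH1 and MDH2 stand in 2 lists); orange points were called higher, blue points lower and grey points not called, and the black bar is the list's median. The relatives of OGDH lie mostly to the right with a median of 0.24, while PHGDH at -1.12 and SUCLA2 at -0.84 lie farthest to the left.

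The lines can differ in whole stretches of chromosome, so each gene was set beside its neighbours in RefSeq order, up to 10 on each side with a mean of at least 7, a step chosen after the values were seen. OGDH's 20 neighbours had a median difference of 0.039, with 2 higher and 2 lower. Those of IDH2 had a median of 0.094, with 3 higher and 4 lower, and those of IDH1 a median of 0.062, with 4 higher and 1 lower. For IDH3A, IDH3B and IDH3G the neighbours' medians were 0.042, 0.024 and -0.034. Among the 23 called pathway genes with a mean of at least 7, the neighbours' median had the gene's own sign in 13, and in 9 of these it was 0.1 or more in size. These 9 were SUCLA2 (given above), SLC25A10 (median -0.35, 13 of 20 lower and 0 higher), AADAT (0.18, 7 higher and 6 lower), SDHD (0.17, 4 and 1), MDH2 (0.16, 7 and 1), OAT (0.15, 8 and 1), OGDHL (0.12, 7 and 0), GLUL (0.12, 7 and 1) and KYAT3 (0.11, 4 and 3). The part of neighbouring genes in the values of the members and of these genes was not tested. The share of other genes with such neighbours was not counted. Of all genes with a mean of at least 7, 20.9% were called higher and 15.6% lower.

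D2HGDH lies near the end of chromosome 2, with 12 such neighbours in reach, of which 6 were lower and 0 higher, with a median of -0.29. These 6 follow each other directly before D2HGDH: STK25 at -0.61, BOK at -0.79, THAP4 at -0.80, ATG4B at -0.34, DTYMK at -0.89 and ING5 at -0.32. D2HGDH, at -0.12, and GAL3ST2 and RTP5 beyond it, at -0.055 and 0.031, were not called. Over chromosome 2 as a whole 14.9% of 725 such genes were lower and 19.9% higher. The part of this stretch in the D2HGDH value was not tested.

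**Figure D4:**
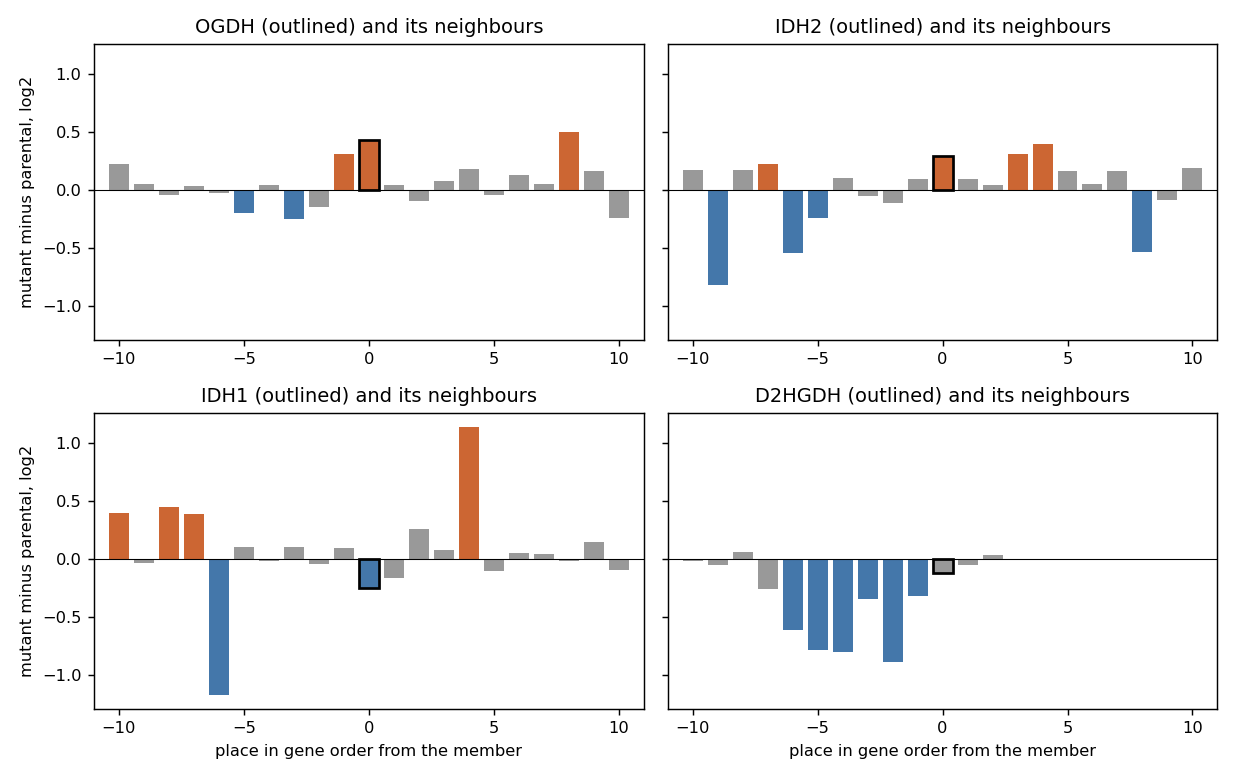
Mutant minus parental log2 difference of OGDH, IDH2, IDH1 and D2HGDH (outlined bars at 0) and of up to 10 genes on each side in chromosome order; orange bars were called higher, blue lower and grey not called. A run of 6 lower genes stands directly before D2HGDH, and no such run surrounds the other 3.

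For each called gene, the profiles nearest to it were sought among 11207 other genes with a mean of at least 7, as the Euclidean distance between log2 values centred over the 6 arrays. COPS4 and SERPINH1 lay nearest to OGDH (distances 0.034 and 0.039), MIR503HG and RAB3GAP2 to IDH2 (0.042 and 0.043), and ETV1 and SWAP70 to IDH1 (0.048 and 0.057). These values are over 6 arrays in 2 groups, so a like difference between the lines brings profiles near each other: COPS4 differed by 0.41, SERPINH1 by 0.45 and ETV1 by -0.25.

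Array medians lay between 6.88 and 6.93, and arrays correlated across probe sets at 0.995 to 0.996 within and 0.988 to 0.989 between groups. Of 10 epithelial colon markers 9 had a mean of at least 7 (VIL1 did not). In the mutant 7 of the 10 were lower, among them CDH1 at -1.36, and 0 higher. The mean level of all 10 ran from 10.67 to 10.74 in parental and 10.11 to 10.19 in mutant arrays. The part of this lower level in the members' values was not tested. Mean levels of leukocyte (7 named), fibroblast (8), endothelial (6) and hepatocyte (6) markers lay between 5.35 and 6.33 in all arrays, with 0, 1, 0 and 0 members higher and 0, 0, 0 and 1 lower (PDGFRB at 0.27 and SERPINA1 at -0.78). In these lists 6, 7, 5 and 4 markers had a mean under 7. The rest were brighter, among them CD68 at 9.19, COL1A1 at 8.30 and CPS1 at 8.71 in parental arrays.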

How the data were processed

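The authors deposited a log2 value for each probe set in every array. Per the submitters' processing notes they used RMA and Partek, with no versions stated. RMA makes the arrays' distributions alike, so a difference in total RNA between the lines is removed, and it compresses changes of dim probe sets. The 33297 probe sets were used as deposited; 19460 had 1 gene symbol, 1754 several and 12083 were not named. A gene was represented by its single-symbol probe set with the highest mean. The gene IDs of 19429 of the 19460 single-symbol probe sets were found in RefSeq (GRCh38.p14), used for gene order and promoter sequences.

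All probe sets were tested with limma 3.58.1 (lmFit, eBayes, two-sided; 4 residual and 2.163 prior degrees of freedom) in R 4.3.3, with Benjamini-Hochberg adjustment over all of them. Tables were made with Python 3.11.15, numpy 2.4.6, pandas 2.3.3 and scipy 1.17.1. Simulated data had the spread of these 33297 probe sets, with only 200 of them changed. Of changes of 1.5-fold, 55.9% were recovered, of 2-fold 86.4% and of 4-fold 95.5%, with 8 false calls. The real data gave 6166 calls, and changes under 1.5-fold were not simulated. These shares therefore do not tell how often changes as small as the members' are found. Alternatives covered normalization, filters on dim probe sets, the variance model, array weights, a replicate block, each array left out, the probe sets used and a minimum fold of 1.2. Same-numbered arrays did not deviate together (correlations 0.043, -0.013 and 0.0027), so the numbers were not taken as pairs.

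The members and the lists were chosen with earlier results of these data known. The text names the members, up to 2 called genes per list and direction with the largest difference, up to 2 nearest profiles for each called member, and others as marked or to fill out a role in a list. The labels do not tell whether replicate arrays are separate cultures; the p-values therefore reflect the spread among these arrays alone, which may be technical, and their number limits the precision.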

Additional observations from a re-analysis of the deposited data

How the results depend on the processing

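The 3 called members kept their direction under all 17 alternatives. Requiring a change beyond 1.2-fold in limma's test, stricter by construction, lowered the probe sets called from 6166 to 1743, with 48.2% of them higher against 55.9%, the pathway genes called from 25 to 6, and the members called from 3 to 0, with 1 at an unadjusted p under 0.05. An intensity trend, an ordinary linear model and a filter at a mean log2 of 7 called 4 members, adding IDH3G. Over all probe sets tested, these called 7451 of 33297, 5418 of 33297 and 7142 of 16270, against 6166 of 33297 in the main fit. With the replicate number as a block, which nothing shows to pair the arrays, 4365 probe sets, 17 pathway genes and 2 members were called; IDH1 was lost (adjusted p = 0.0864, with 0.00493 to 1 over its alternatives), as were 8 pathway genes: OGDHL (0.059, with 0.00178 to 0.251), SLC25A22 (0.0571), SUCLG2 (0.0622), DLD (0.0641), ME1 (0.0659), MDH2 (0.0703), SLC25A11 (0.0895) and GLUL (0.121). The ordinary linear model lost 5: SDHD (0.0512), GLUL (0.0574), SLC25A21 (0.0644), SLC25A10 (0.0698) and KYAT3 (0.0848). Aligning the array medians lost SLC25A11 (0.0563) and GLUL (0.0781). Leaving out each array gave 4037 to 4644 probe sets, 15 to 18 pathway genes and 2 to 3 members. The shift of IDH3A minus IDH3G, 0.00673, ran from -0.0276 to 0.0263 without single arrays (-0.0276 without parental replicate 1 and -0.00363 without mutant replicate 1) and was -0.000517 after quantile normalization again; the cause was not tested. RMA values carry no signal over background, so detection could not be judged, and dim genes such as ADHFE1 and SLC25A21 are limited most.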

Other observations

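AADAT, DHTKD1 and SLC25A21 each handle 2-oxoadipate or its amino acid on the path of lysine breakdown. After their values were seen, 3 further enzymes of that path were looked up. ALDH7A1, the aldehyde dehydrogenase that makes 2-aminoadipate, read 9.97, 10.02 and 10.10 in parental and 10.65, 10.65 and 10.40 in mutant arrays, a rise of 0.54 (95% interval 0.33 to 0.74, adjusted p = 0.0077, limma). The groups did not overlap. AASS, which starts the path, differed by 0.073 (-0.094 to 0.24, adjusted p = 0.564), and GCDH, which follows DHTKD1, by -0.044 (-0.25 to 0.16, adjusted p = 0.801), both with overlapping groups. These 3 were chosen because of the values already seen, so they are no separate support for a pattern.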
